A study of Mus musculus with 12 samples.

Results

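The Hox genes encode homeodomain transcription factors that give cells their position along the body and the limbs. All genes whose symbol is Hox followed by a cluster letter (a to d) and a paralogue number were taken from the probe sets that the platform annotation assigns to a single gene symbol. This gave 33 Hox genes out of 18193 genes measured that way. They were read by 48 probe sets, and each gene is represented by the probe set with the highest mean over the 12 arrays. The mouse reference (RefSeq, GRCm38.p6) lists 39 Hox genes. The levels of those outside the 33 were not analysed here, although 3 of them enter the promoter counts below. A further 3 probe sets that list more than 1 symbol were left out.

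The arrays measured RNA of 3 osteoprogenitor populations, named SSC, CSP and Thy in the sample labels, sorted by flow cytometry from bones of JUN-inducible mouse pups. JUN, a subunit of the transcription factor AP-1, was induced by doxycycline in the drinking water of the mother, and cells were collected after 2 days. Each population has 4 arrays, 2 with JUN and 2 labelled -JUN, read here as the arm without induction, so that all animals are of the inducible kind. The sources used here do not give the promoter that drives the inducible JUN, the strain, the age in days, or whether -JUN animals received doxycycline. The sorted tissue was a mixture of limb bones, skull cap, scapula, vertebrae and ribs, so every Hox value is an average over cells from regions with different positional codes. In such mixed samples, fewer cells of a kind and less RNA per cell cannot be told apart.

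The titles name 5 mice. Mice 3, 3b and 10 were without JUN and mice 4 and 7 carried it. Mice 3, 4 and 7 gave an array of each population, mouse 3b gave CSP and Thy, and mouse 10 gave SSC alone. The SSC titles of mice 3, 7 and 10 carry a date that the other titles lack. The shared animal is therefore read from the number alone. Whether the date marks a batch is not stated, and no CSP or Thy title carries one. For those 3 arrays, an effect tied to the date and one of the population cannot be told apart. Xist, which is made from the inactive X, read 12.49 to 13.20 on all 3 mouse 3 arrays, in the arm without JUN, and 6.11 to 7.29 on the 9 remaining arrays.

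Of 7 tested genes of sort markers, 1, 2 and 1 passed in SSC against CSP, SSC against Thy and CSP against Thy: Eng, lower in SSC than in both, and Thy1, higher in Thy than in both. Thy1 was at 12.98 in Thy against 8.28 in SSC and 8.47 in CSP on the log2 scale (means of 4 arrays). Jun itself lay between 12.06 and 13.65 on all arrays, and its difference with JUN against without was 0.32, -0.43 and -0.27 in SSC, CSP and Thy (SE 0.41; limma adjusted p = 0.804, 0.995 and 0.985). The labels of the JUN arms are thus not borne out by the Jun probe set, and no source used here says whether that probe set reads the induced copy, so arrays with JUN are the arrays labelled so.

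The mouse Hox genes lie in 4 clusters, and within a cluster genes with low paralogue numbers are used from the head end of the trunk backwards while genes with high numbers are used further back and later. In the limb, paralogues 9 and 10 pattern the upper segment, 11 the forearm and lower leg and 13 the hand and foot, mainly from the a and d clusters. Skeletal cells keep much of their embryonic Hox code after birth, whereas the bones of the skull that arise from the neural crest in front of the hindbrain form without Hox expression.

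Promoter sequences (250 bases upstream of the annotated start, RefSeq, GRCm38.p6) are shown for 3 genes on which the comparisons below turn. Hoxd9 was the only Hox gene past the threshold between populations (chr2:74697513-74697762, plus strand). Hoxd11 had the lowest p with JUN (chr2:74679308-74679557, plus strand, the outer of 2 annotated starts). Hoxa2 was the Hox gene of lowest p between SSC and CSP (chr6:52164832-52165081, minus strand). Capitals mark matches to the letters of 4 motifs searched on both strands: TGANTCA, bound by AP-1; TGACGTCA, the cyclic AMP response element; TGATNNAT, bound by PBX with HOX; and TGACAG, bound by MEIS.

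Hoxd9: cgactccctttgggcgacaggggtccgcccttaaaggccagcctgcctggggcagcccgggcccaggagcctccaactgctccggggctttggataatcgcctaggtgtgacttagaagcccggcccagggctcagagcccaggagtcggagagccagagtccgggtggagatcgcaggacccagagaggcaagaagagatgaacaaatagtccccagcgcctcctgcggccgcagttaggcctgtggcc
Hoxd11: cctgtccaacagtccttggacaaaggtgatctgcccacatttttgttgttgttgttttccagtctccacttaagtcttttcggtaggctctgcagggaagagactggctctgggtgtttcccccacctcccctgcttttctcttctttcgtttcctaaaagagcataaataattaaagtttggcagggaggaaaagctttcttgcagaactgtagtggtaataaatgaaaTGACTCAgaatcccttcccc
Hoxa2: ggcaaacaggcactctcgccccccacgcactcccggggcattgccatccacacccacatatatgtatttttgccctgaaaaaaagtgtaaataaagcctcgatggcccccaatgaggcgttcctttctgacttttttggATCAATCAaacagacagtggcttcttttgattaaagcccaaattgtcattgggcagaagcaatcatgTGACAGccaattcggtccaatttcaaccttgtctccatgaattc

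The Hoxd9 window holds none of these letters. The Hoxd11 window holds TGACTCA, starting 20 bases upstream of the annotated start. The Hoxa2 window holds ATCAATCA, the reverse form of the PBX-HOX letters, 111 bases upstream, and TGACAG 44 bases upstream, and these do not overlap. The RefSeq table had 24 promoters of 22 Hox genes, 19 of them among the 33. The AP-1 letters occurred in 1 of the 24 (4.17%) against 6.75% of all 32851 promoters of the same length. The cyclic AMP letters occurred in 0 of 24 against 1.55%. The PBX-HOX letters occurred in 4 of 24 (16.7%) against 7.68%, in Hoxa2, Hoxb1, Hoxb8 and the inner start of Hoxd11. The MEIS letters occurred in 2 of 24 (8.33%) against 15.9%, in Hoxa2 and Hoxa3. A match is a description of letters and not a site of binding.

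The shares of Hox genes above and below the array median on all arrays were each somewhat lower than those of all genes. Values are log2 expression as deposited, and an array's median over its probe sets lay between 7.65 and 7.76. The median is used as a mark only, because the brightness of a probe set depends on its own probes and levels are therefore not compared between genes. Of the 33 Hox genes, 14 lay above the array median on all 12 arrays (42.4%, against 50.1% of all genes). Below it on all 12 lay 7 (21.2%, against 27.4%), and 12 crossed it. As both shares were lower than over all genes, the share that crossed was higher. A gene was tested if its probe set was above the median on at least 2 arrays, and 24 of the 33 passed this filter (72.7%, against 68.8% of all genes).

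The a cluster on chromosome 6 had 9 genes measured. Hoxa3, Hoxa5, Hoxa7, Hoxa9, Hoxa10 and Hoxa11 were above the median on all arrays. Hoxa3, which patterns neck and throat structures, read 9.97 and 9.62 in SSC without JUN and 9.79 and 9.82 with it. In CSP it read 10.38 and 10.09 without and 10.30 and 10.63 with JUN, and in Thy 10.29 and 9.80 without and 10.66 and 9.75 with JUN. On this probe set all SSC arrays were below all CSP arrays, while the Thy arrays ran through both. Another Hoxa3 probe set above the median on all arrays read 8.45 to 9.38 in SSC, 8.50 to 9.54 in CSP and 8.08 to 8.64 in Thy. There SSC and CSP overlapped, and the lowest values were in Thy. Hoxa7, a trunk gene, spanned 9.08 to 9.60 in SSC, 9.56 to 9.81 in CSP and 9.64 to 10.10 in Thy, with all SSC arrays below all Thy arrays. Hoxa10, a gene of the lumbar trunk and the upper limb segment, spanned 9.72 to 10.44 in SSC, 9.91 to 10.32 in CSP and 8.94 to 10.16 in Thy. Hoxa2, the gene of the second pharyngeal arch, was below the median on 3 SSC arrays and above it elsewhere, and Hoxa4 and the hand and foot gene Hoxa13 were below it on all 12.

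The b cluster on chromosome 11 was the one with fewest genes above the median throughout, 1 of 9. That gene was Hoxb2, a hindbrain and second arch gene, at 8.50 and 8.11 in SSC without JUN, 9.13 and 8.09 with it, 8.72 and 7.96 in CSP without, 8.59 and 8.56 with, 8.85 and 8.98 in Thy without and 9.50 and 8.80 with JUN. All Thy arrays were above all CSP arrays for Hoxb2, but not above all SSC arrays. Hoxb3, Hoxb4, Hoxb5 and Hoxb9 crossed the median, as did Hoxb13, which was above it on 1 array only. Hoxb1, Hoxb6 and Hoxb7 were below it on all 12. Hoxb3 spanned 7.55 to 8.67 in SSC, 8.22 to 8.89 in CSP and 7.74 to 8.92 in Thy.

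Of the 7 genes measured in the c cluster on chromosome 15, Hoxc4, Hoxc6, Hoxc8, Hoxc9 and Hoxc10 were above the median on all arrays. Hoxc10, a lumbar and hindlimb gene, read 10.66 and 10.15 in SSC without JUN and 11.32 and 9.51 with it. In CSP it read 10.69 and 9.99 without and 10.09 and 10.69 with JUN, and in Thy 10.78 and 9.17 without and 9.71 and 9.86 with JUN. The 3 populations overlapped throughout for this gene. Hoxc8, a thoracic gene, spanned 8.73 to 9.12 in SSC, 8.56 to 10.26 in CSP and 7.86 to 9.26 in Thy. Hoxc4 spanned 8.04 to 8.97, 8.41 to 9.47 and 8.36 to 8.75 in the same order. Hoxc6 and Hoxc9 varied least of the 33 genes, with SDs of 0.16 over the 12 arrays. Hoxc5 was below the median on 9 arrays and Hoxc13, a gene of hair and nail, on 11.

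In the d cluster on chromosome 2, Hoxd9 and Hoxd13 were above the median on all 12 arrays, and Hoxd8 on 11. Hoxd13, the gene of hand and foot, read 9.70 and 9.63 in SSC without JUN, 10.86 and 9.23 with it, 9.42 and 9.62 in CSP without, 9.84 and 8.44 with, 9.42 and 9.89 in Thy without and 8.34 and 8.78 with JUN. The populations overlapped, and the lowest 3 values were all on arrays with JUN. Hoxd10 spanned the widest range of the 33 genes, from 5.65 to 9.87, and lay below the median on 3 arrays. Hoxd11 was below it on 5 arrays and Hoxd3 on 9, while Hoxd1 and Hoxd12 were below it on all 12. RefSeq gene models overlap for Hoxd10 with Hoxd11, Hoxa3 with Hoxa4 and Hoxa5, and Hoxb3 with Hoxb4, and which transcripts the probes match was not examined here.

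**Figure D1:**
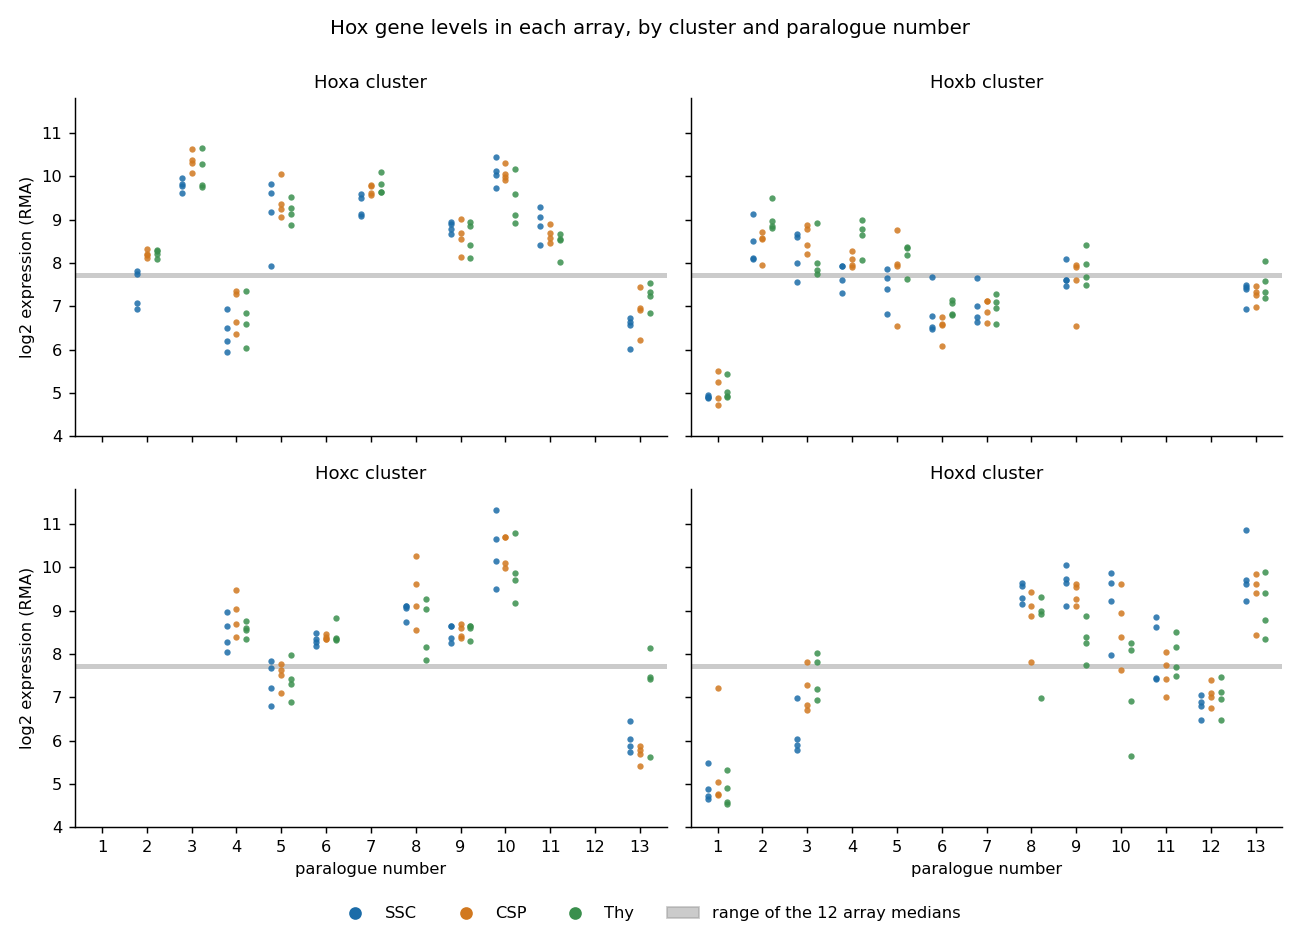
Log2 expression (RMA, vertical axis) of the 33 Hox genes by paralogue number (horizontal axis) in a panel per cluster; each point is 1 of 12 arrays, coloured by population, and the grey band spans the array medians of 7.65 to 7.76. Hoxd13 lies above the band on all arrays and Hoxd1, Hoxb1 and Hoxa4 below it on all. Hoxd9 lies above each array's own median, but its Thy array of mouse 3b, at 7.74, falls within the band. Height is to be compared within a gene, not between genes.

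Of the 33 Hox genes, 11 had more than 1 single-symbol probe set, and a dimmer one can differ from the one used. The other Hoxa9 probe set ran from 5.49 to 9.30 where the one used ran from 8.13 to 9.02. The other Hoxd8 probe set ran from 8.01 to 9.17 where the one used ran from 6.98 to 9.65. For Hoxb3 both read close together, at means of 8.31 and 8.23. Hoxd9, Hoxd10, Hoxd11, Hoxd3 and Hoxa2 each rest on 1 probe set.

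Between the sorted populations, Hoxd9 was the only Hox gene past the adjusted threshold, and that call was lost in most alternatives tried. Hoxd9 takes part in patterning the lumbar and sacral trunk and the upper limb segment. In SSC it read 9.64 and 9.10 without JUN and 10.05 and 9.73 with it, in CSP 9.27 and 9.10 without and 9.61 and 9.56 with JUN, and in Thy 8.25 and 7.74 without and 8.40 and 8.88 with JUN. Every Thy array was below every SSC and every CSP array, while SSC and CSP overlapped. The means were 9.63 ± 0.39 in SSC, 9.39 ± 0.24 in CSP and 8.32 ± 0.47 in Thy (SD, n = 4).

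Hoxd9 was higher in SSC than in Thy by 1.31 on the log2 scale (SE 0.21, adjusted p = 0.0287 in limma) and higher in CSP than in Thy by 1.07 (SE 0.21, adjusted p = 0.0310 in limma), comparisons that share the Thy arrays. Within mice 3, 4 and 7 the difference between SSC and Thy was 1.40, 1.65 and 0.85, and within mice 3, 3b, 4 and 7 that between CSP and Thy was 1.03, 1.36, 1.21 and 0.68. SSC also read above CSP within mice 3, 4 and 7, by 0.37, 0.44 and 0.17, which did not pass the test over all arrays. The order SSC, CSP, Thy thus held within each of the 3 mice with all populations. With the mouse as a fixed block, the adjusted p was 0.113 for SSC against Thy and 0.0472 for CSP against Thy in limma.

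The direction of Hoxd9 was kept in every alternative tried, but the call was close to the threshold. With the poly-A controls, spiked-in bacterial transcripts, as a covariate, the differences from Thy were 1.16 (adjusted p = 0.635) and 1.01 (adjusted p = 0.157). These controls read 8.08 to 10.54 in SSC, 9.38 to 11.04 in CSP and 10.63 to 11.52 in Thy, so they move with the populations. Within SSC they read 8.08, 9.39 and 8.65 for mice 3, 7 and 10, whose titles carry a date, and 10.54 for mouse 4. The part of these controls in the result was tested only by this covariate, and that of the date was not tested. When each array was left out in turn, SSC against Thy passed in limma only without the SSC array of mouse 4 or the Thy array of mouse 7 (adjusted p 0.0244 to 0.0976, differences 1.20 to 1.43). CSP against Thy passed only without the Thy array of mouse 7 (adjusted p 0.0287 to 0.107, differences 0.95 to 1.18). Without all arrays of mouse 3, 3b, 4 or 7, neither comparison passed.

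Markers of other cell kinds also differed between the populations, though not all of them set Thy apart as Hoxd9 did. The mean level of 16 chondrocyte genes lay between 9.77 and 13.16 in SSC, 9.80 and 13.002 in CSP and 8.73 and 9.80 in Thy. That of 7 osteoblast genes lay between 11.49 and 12.53, 9.63 and 11.78, and 10.32 and 10.69 in the same order. That of 8 Schwann cell and glia genes lay between 9.68 and 10.39, 8.25 and 9.22, and 8.90 and 10.55. Within this last list the myelin gene Mbp had means of 12.43, 7.96 and 10.84 and the glial factor Sox10 of 10.54, 7.73 and 10.79. The 15 leukocyte genes had mean levels of 6.73 to 7.21, 6.83 to 7.55 and 7.26 to 7.72, and Ptprc, the pan-leukocyte gene CD45, was below the array median on all 12 arrays. Counts past the threshold in SSC against CSP, SSC against Thy and CSP against Thy were 2, 0 and 2 of 8 glia genes, 0, 1 and 1 of 8 endothelial genes, 0, 1 and 0 of 10 adipocyte and reticular genes and 0, 0 and 1 of 7 tendon genes. They were 0 in each for the 16 chondrocyte, 7 osteoblast, 10 leukocyte, 8 muscle and 2 erythroid genes tested in limma. At an unadjusted p under 0.05 there were 0, 6 and 8 chondrocyte, 2, 3 and 1 osteoblast and 5, 7 and 2 leukocyte genes. Muscle and erythroid genes had 0 each, and the shares of all genes were 6.51%, 17.7% and 12% in the same order. The part of these cells in the Hox differences was not tested.

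Over all genes tested, 49 of 12516 (0.391%) differed between SSC and Thy, 124 (0.991%) between CSP and Thy and 54 (0.431%) between SSC and CSP at an adjusted p under 0.05. Of the 24 Hox genes tested, 1, 1 and 0 passed. At an unadjusted p under 0.05 in limma the count of Hox genes was 7 of 24 between SSC and Thy against 17.7% of all genes, 5 against 12% between CSP and Thy and 3 against 6.51% between SSC and CSP. Arrays of the groups did not overlap for 4, 2 and 2 of the 24 in the same order, against 7.59%, 6.11% and 4.06% of all genes. The counts are small, and 1 gene more or less moves these shares by several percentage points.

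Among the Hox genes of low paralogue number, the smallest p-values belonged to genes with low values in SSC. Hoxa2 read 7.75 and 6.94 in SSC without JUN and 7.83 and 7.09 with it, against 8.22, 8.17, 8.11 and 8.31 in CSP and 8.31, 8.10, 8.22 and 8.28 in Thy. All SSC arrays were below all others, and CSP and Thy overlapped. Its differences were -0.80 from CSP (SE 0.22, adjusted p = 0.277 in limma) and -0.83 from Thy (SE 0.22, adjusted p = 0.120), which did not pass. Within mice 3, 4 and 7 SSC was below CSP by 0.46, 0.29 and 1.23. Hoxd3, a gene of the neck vertebrae, read 5.79 and 6.04 in SSC without JUN and 5.90 and 6.99 with it, 7.29 and 6.70 in CSP without and 7.83 and 6.82 with, and 7.82 and 7.19 in Thy without and 8.03 and 6.94 with JUN. Its SSC array of mouse 7 lay among the arrays of the other populations, and its differences were -0.98 from CSP and -1.31 from Thy (SE 0.34, adjusted p = 0.521 and 0.112 in limma). Every SSC value of Hoxd3 lay below its array's median, and the gene passed the filter only through CSP and Thy arrays. Hoxa2 also needed CSP or Thy arrays to pass it. The filter thus kept both genes through the populations in which they read higher, and their differences are a description only.

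Hoxb4, a gene of neck vertebrae and of blood progenitors, read 7.94 and 7.60 in SSC without JUN, 7.93 and 7.31 with it, 8.10 and 7.92 in CSP without, 7.94 and 8.27 with, 8.08 and 8.78 in Thy without and 8.66 and 8.98 with JUN. On this probe set all SSC arrays were below all Thy arrays, by a mean difference of -0.93 (SE 0.23, adjusted p = 0.104 in limma). Its difference between CSP and Thy was -0.57 (adjusted p = 0.364). On the other Hoxb4 probe set SSC read 7.06 to 8.04 and Thy 7.49 to 8.28, so these groups overlapped there. Hoxa3 differed by -0.55 between SSC and CSP (adjusted p = 0.711) and Hoxb2 by -0.58 between CSP and Thy (adjusted p = 0.418). None of these passed.

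Among the Hox genes of high paralogue number, the widest difference from Thy was that of Hoxd10, the neighbour of Hoxd9 and a gene of the limb and of lumbar motor neurons, and it did not pass. Hoxd10 read 9.22 and 9.65 in SSC without JUN, 9.87 and 7.98 with it, 8.39 and 7.63 in CSP without, 9.61 and 8.94 with, 6.91 and 8.26 in Thy without and 5.65 and 8.09 with JUN. The groups overlapped, since the SSC array of mouse 7 and the CSP array of mouse 3b fell within the range of Thy. Its differences were 1.95 for SSC against Thy and 1.42 for CSP against Thy (SE 0.62, adjusted p = 0.162 and 0.396 in limma). Within mice 3, 4 and 7 SSC minus Thy was 2.31, 4.22 and -0.11, so mouse 7 did not share the direction. Hoxa10 differed by 0.62 between SSC and Thy (SE 0.27, adjusted p = 0.254). Hoxc8 and Hoxd8 are named here too, although the split used below counts them with the low numbers, 1 to 8. Hoxc8 differed by 0.81 between CSP and Thy (SE 0.31, adjusted p = 0.326), and CSP was above Thy in each of the 4 mice. Hoxd11, Hoxd8 and Hoxd13 had the smallest p among genes higher in SSC than in CSP, at 0.54, 0.61 and 0.53 (adjusted p = 0.884, 0.908 and 0.922). Between CSP and Thy, Hoxb9 differed by -0.38 (adjusted p = 0.614).

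**Figure D2:**
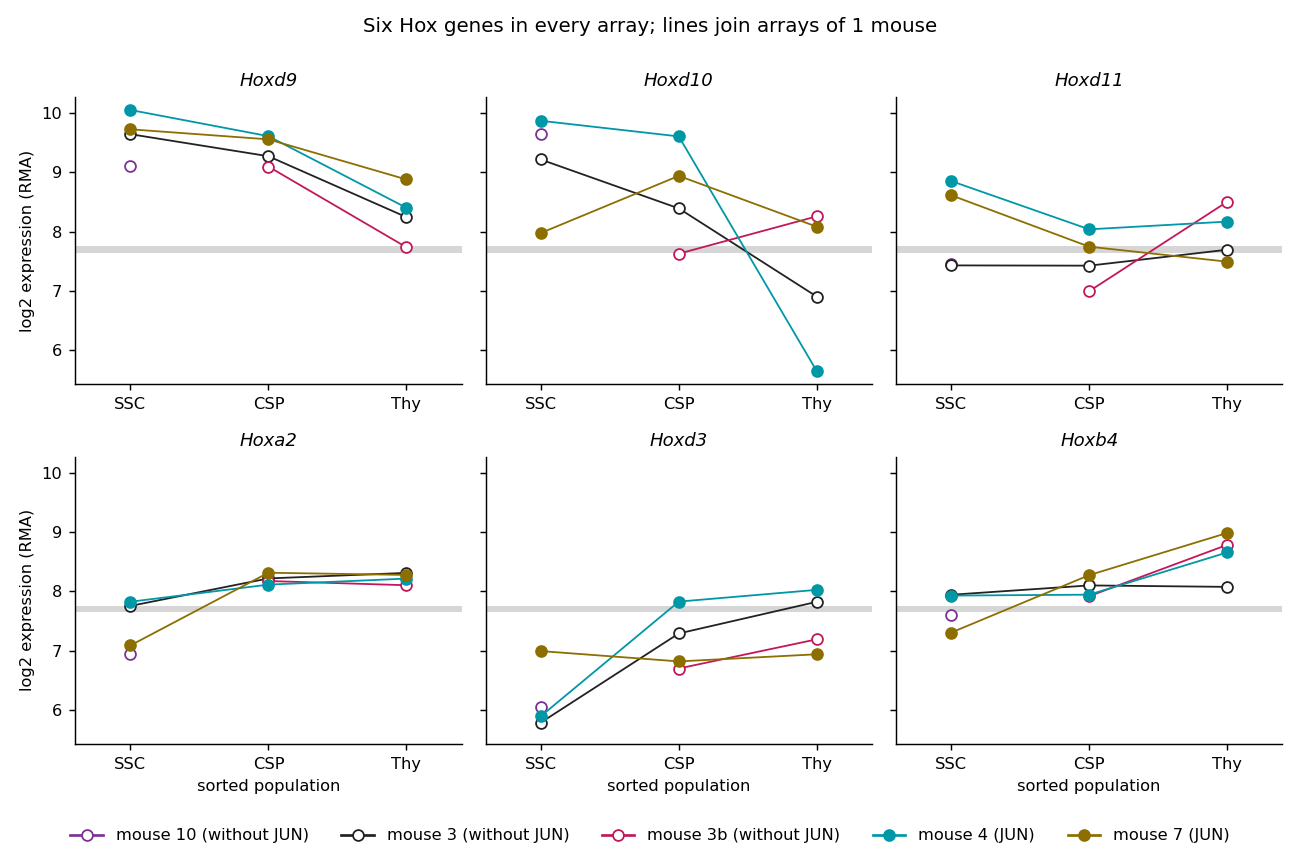
Log2 expression (RMA, vertical axis) of Hoxd9, Hoxd10, Hoxd11, Hoxa2, Hoxd3 and Hoxb4 in the 3 populations; each point is 1 array, lines join arrays whose titles give the same mouse, filled points are JUN arrays, and the grey band spans the array medians. The lines of Hoxd9 fall towards Thy in each of the 4 mice with a Thy array, whereas those of Hoxd10 cross.

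Seen by paralogue number, the differences from SSC fell on either side of 0. Of 14 tested genes with paralogue numbers 1 to 8, 2 were higher in SSC than in CSP and 12 lower, with a median difference of -0.37. Of 10 with numbers 9 to 13, 9 were higher and 1, Hoxc9, lower, with a median of 0.23. Against Thy, 3 of the 14 were higher in SSC (median -0.23) and 8 of the 10 (median 0.49), the exceptions being Hoxb9 and Hoxc9. Over all genes tested, 42.2% were higher in SSC than in CSP (median -0.05) and 42.3% higher in SSC than in Thy (median -0.09). The low-numbered genes higher in SSC were Hoxd8 and, at 0.00, Hoxb2 against CSP, and Hoxd8, Hoxc8 and Hoxb3 against Thy, and both comparisons share the SSC arrays.

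Between CSP and Thy the same split gave 7 of 14 and 7 of 10 genes higher in CSP, with medians of 0.04 and 0.22, against 45.4% of all genes and a median of -0.04. Averaged over the 10 tested genes of numbers 9 to 13, the arrays read 8.84 to 9.54 in SSC, 8.53 to 9.07 in CSP and 8.24 to 8.66 in Thy. Averaged over the 14 of numbers 1 to 8, they read 7.99 to 8.52 in SSC, 8.50 to 8.91 in CSP and 8.49 to 8.70 in Thy. The place of the split was chosen with these values in view, so no test is given for it.

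By cluster, the d genes leaned to SSC, with 5 of 6 tested genes higher than in CSP (median 0.53) and 5 of 6 higher than in Thy (median 0.80), Hoxd3 being the exception in both. The b genes leaned the other way against Thy, with 1 of 5 higher in SSC (median -0.57) and 1 of 5 higher in CSP (median -0.38), in both cases Hoxb3. In the a cluster 3 of 7 and in the c cluster 2 of 6 tested genes were higher in SSC than in Thy, with medians of -0.05 and -0.04.

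**Figure D3:**
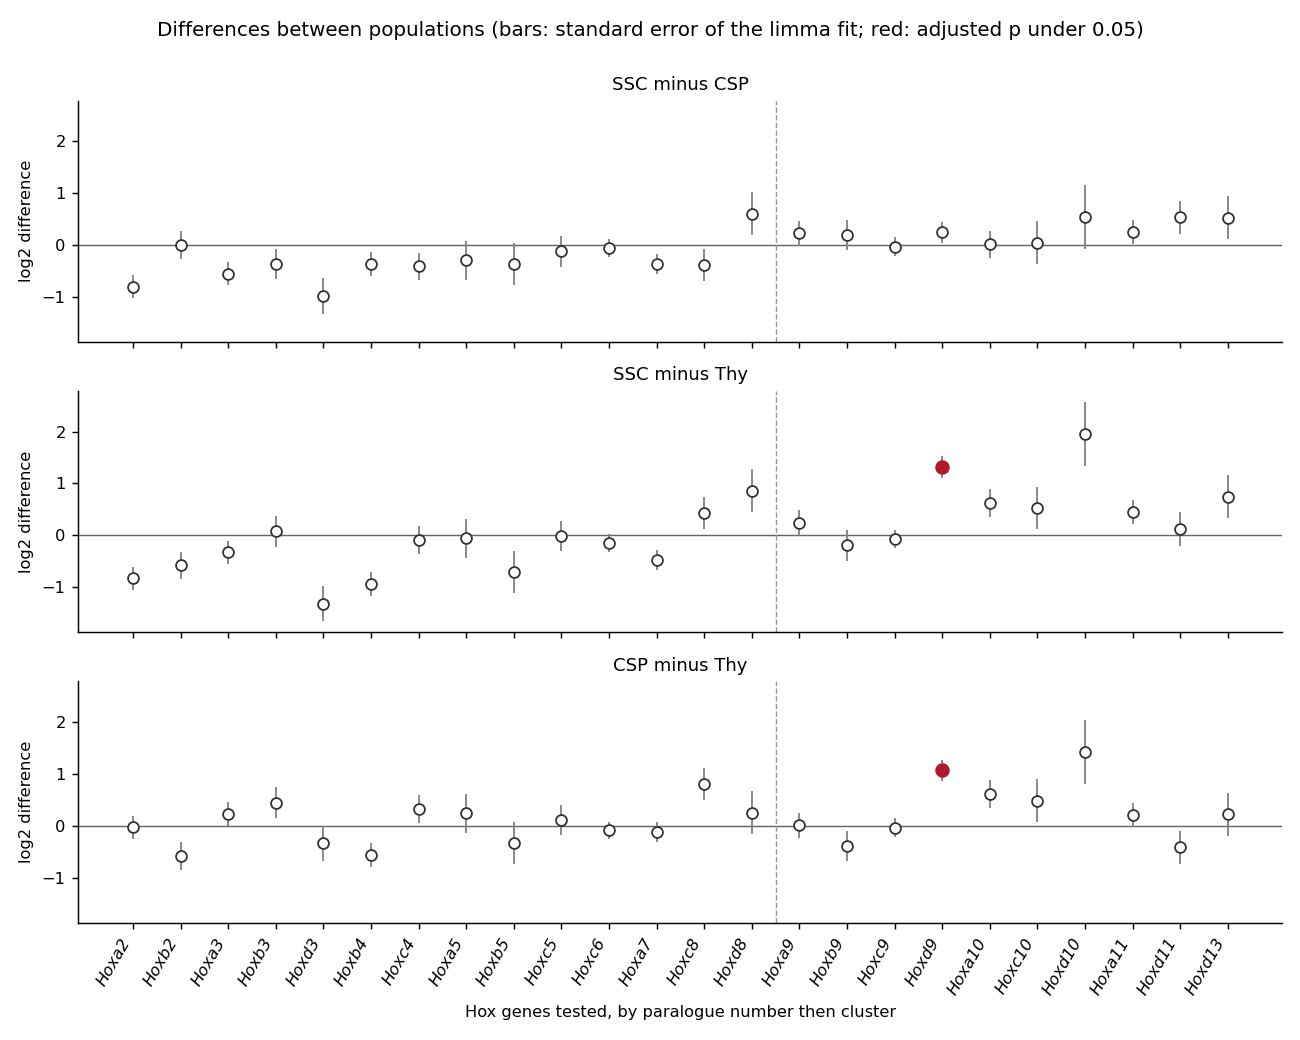
Log2 difference (vertical axis) of the 24 tested Hox genes between populations, ordered by paralogue number and then cluster (horizontal axis); points are limma estimates, bars their standard errors, and the dashed line parts paralogue numbers 1 to 8 from 9 to 13. Hoxd9, in red, is the only gene past the threshold, at 1.31 for SSC minus Thy and 1.07 for CSP minus Thy.

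Within mice, 8 of the 24 Hox genes went the same way between SSC and CSP in mice 3, 4 and 7, against 21.9% of all genes, and 10 of 24 between SSC and Thy, against 37.2%. Between CSP and Thy 4 of 24 went the same way in all 4 mice, against 18.03%. On the probe set used, Hoxd13 was higher in SSC than in CSP and Thy in each of the 3 mice, by 0.29 to 1.02 and by 0.28 to 2.52. The other Hoxd13 probe set was below the median on all 12 arrays and did not share this throughout. There SSC was below Thy in mouse 3 (6.89 against 7.43) and below CSP in mouse 7 (6.67 against 6.95), and above in the remaining pairs. Hoxa7 was lower in SSC than in both in each of them, by differences from -0.64 to -0.10 and from -0.70 to -0.05.

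The 9 Hox genes that did not pass the filter were not tested in the main comparison. Among them Hoxc13 read 7.42 and 5.62 in Thy without JUN and 8.14 and 7.48 with it, against 5.75 to 6.45 in SSC and 5.42 to 5.88 in CSP. It was singled out after its values were seen. With no filter on dim probe sets, CSP minus Thy was -1.47 (SE 0.38, adjusted p = 0.152 in limma), and 3 of 4 Thy arrays were above all SSC and CSP arrays.

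No Hox gene passed for JUN induction, the treatment of the series. With 2 arrays against 2, 0 of 24 Hox genes and 0 of 12516 genes (0%) passed an adjusted p under 0.05 in SSC, CSP or Thy in limma, nor for the mean of the 3 differences. At an unadjusted p under 0.05 the counts of Hox genes were 1 of 24 in SSC against 6.5% of all genes, 0 in CSP against 2.3%, 1 in Thy against 3.04% and 3 for the mean against 12.5%. Arrays with and without JUN did not overlap for 5, 9 and 5 of the 24 genes in SSC, CSP and Thy, against 38.4%, 31.2% and 28.6% of all genes.

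Hoxd11, which shapes the forearm and lower leg, had the smallest p with JUN. In SSC it read 7.43 and 7.46 without JUN and 8.86 and 8.62 with it, in CSP 7.43 and 7.00 without and 8.04 and 7.75 with, and in Thy 7.70 and 8.51 without and 8.17 and 7.50 with JUN. The arms did not overlap in SSC and CSP and overlapped in Thy. The differences were 1.29 in SSC, 0.68 in CSP and -0.27 in Thy (SE 0.36, adjusted p = 0.690, 0.995 and 0.985 in limma). The test of whether these differ gave an unadjusted p of 0.0358 and an adjusted p of 0.9997 in limma, with 144 of 12516 genes (1.15%) under an unadjusted p of 0.05 and 0 past the threshold.

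Some lists of markers of other cells lay mostly to one side of 0 with JUN. In SSC 16 of 16 tested chondrocyte genes were higher with JUN (median 1.44) and 10 of 10 adipocyte and reticular genes lower (median -0.59). Of all genes, 56.3% were higher with JUN in SSC. The mean level of the chondrocyte genes was 9.77 and 10.63 without JUN and 10.18 and 13.16 with it, the highest in mouse 4. That of the adipocyte and reticular genes was 11.21 and 11.45 without and 9.94 and 11.04 with JUN. In CSP 10 of 10 leukocyte genes (median 0.48) and 8 of 8 muscle genes (median 0.71) were higher. In Thy 8 of 8 muscle genes were higher (median 0.66) and 7 of 8 glia genes lower (median -0.64). Of all genes, 57% were higher in CSP and 53.6% in Thy. Leukocyte genes were higher for 9 of 10 in SSC and 8 of 10 in Thy, and muscle genes for 4 of 8 in SSC. Glia genes were lower for 3 of 8 in SSC and 4 of 8 in CSP. In CSP and Thy 14 and 12 of 16 chondrocyte genes were higher and 7 and 8 of 10 adipocyte and reticular genes lower. Tendon genes were higher for 6, 4 and 7 of 7 in SSC, CSP and Thy. None of these genes passed in limma. Their part in the Hox values was not tested.

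Hoxd9 was higher with JUN without overlap in each population, by 0.52 in SSC, 0.40 in CSP and 0.65 in Thy (SE 0.33), and by 0.52 over the 3 (SE 0.19, adjusted p = 0.396 in limma). These 6 arrays with JUN came from 2 mice, so that the agreement of populations is not independent. Hoxc8 was lower in Thy with JUN, at 7.86 and 8.16 against 9.26 and 9.03, by -1.14 (SE 0.44, adjusted p = 0.985). Its difference was -0.22 in SSC, -0.59 in CSP and -0.65 over the 3 (SE 0.25, adjusted p = 0.396). Hoxd11 differed by 0.57 over the 3 (SE 0.21, adjusted p = 0.396).

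The other Hox genes named are those of lowest p in each direction and none passed. In SSC Hoxa5, a thoracic and lung gene, differed by 0.73 (SE 0.51), Hoxa10 by -0.32, Hoxd10 by -0.51 and Hoxb3 by -0.27, and the signs of Hoxa5, Hoxd10 and Hoxb3 turn when 1 array is left out. In CSP Hoxd10 differed by 1.26 (SE 0.82), Hoxb9 by 0.57, Hoxd8 by -0.91 and Hoxb3 by -0.53. In Thy Hoxb4 differed by 0.39, Hoxa7 by 0.32, Hoxd13 by -1.09 (SE 0.56) and Hoxd8 by -1.13 (SE 0.58). Of these, the arms did not overlap for Hoxd10, Hoxd8 and Hoxb3 in CSP and for Hoxa7 and Hoxd13 in Thy. Hoxd8 passed in Thy without mouse 7, at -2.14 (adjusted p = 0.0414 in limma), where the lone array with JUN is assumed to vary like the other groups, and that array read 6.98 on the probe set used and 8.08 on the other Hoxd8 probe set.

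**Figure D4:**
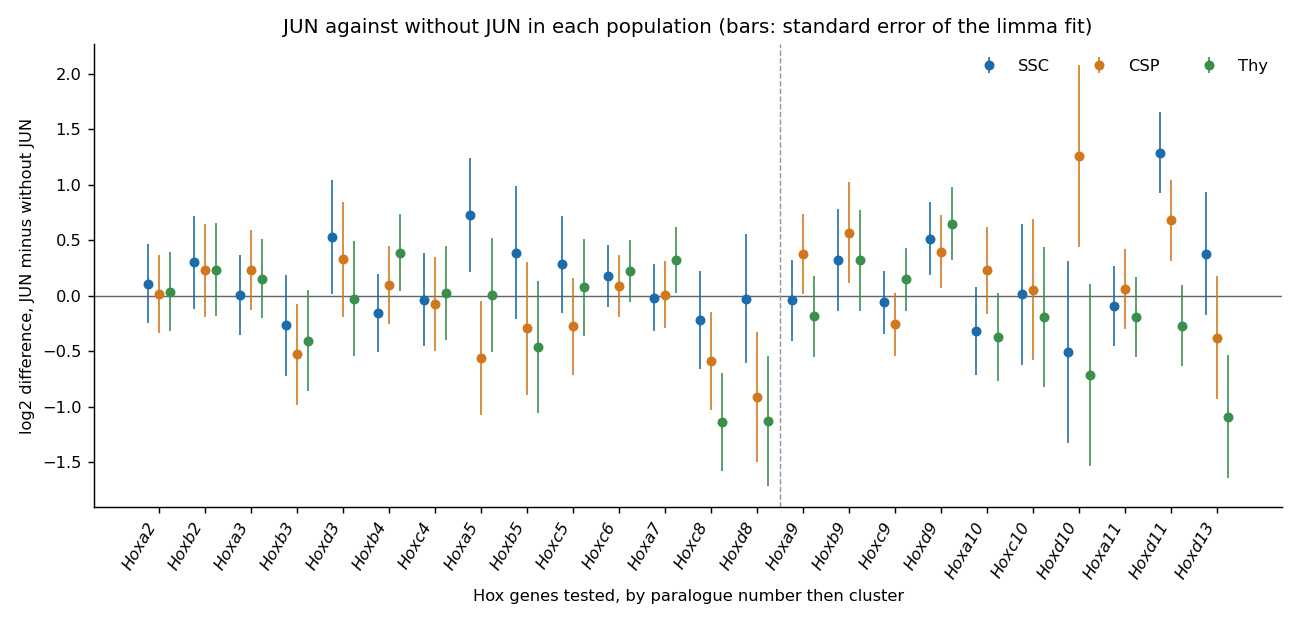
Log2 difference between arrays with and without JUN (vertical axis) for the 24 tested Hox genes, ordered by paralogue number and then cluster (horizontal axis), in SSC, CSP and Thy; points are limma estimates and bars their standard errors, from 2 arrays against 2. Hoxd11 in SSC is highest at 1.29 and Hoxc8 in Thy lowest at -1.14, and none passed the threshold.

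Across populations the signs of the JUN differences were mixed. Of the 24 Hox genes, 13 were higher with JUN in SSC (median 0.01), 15 in CSP (median 0.06) and 12 in Thy (median -0.01), against 56.3%, 57% and 53.6% of all genes with medians of 0.08, 0.07 and 0.04. In the d cluster 4 of 6 were higher in SSC (median 0.45), 4 of 6 in CSP (median 0.36) and 1 of 6, Hoxd9, in Thy (median -0.49).

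Of the TALE homeodomain cofactors, which bind DNA together with Hox proteins, 8 were measured (Meis1, Meis2, Meis3, Pbx2, Pbx3, Pbx4, Pknox1 and Pknox2), and all 8 were above the array median on all 12 arrays, as were 50.1% of all genes. None passed between populations or with JUN. At an unadjusted p under 0.05 there were 0, 1 and 1 of 8 in SSC against CSP, SSC against Thy and CSP against Thy. The shares of all genes were 6.51%, 17.7% and 12%. The smallest p was that of Meis3, at 9.31 in SSC, 9.73 in CSP and 10.27 in Thy, with -0.96 for SSC against Thy (SE 0.23, adjusted p = 0.0992 in limma).

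Polycomb and trithorax proteins keep Hox genes silent or active once their state is set. All 26 measured genes of this list were tested, and 23 were above the median on all arrays, as were 50.1% of all genes. None passed in any comparison. At an unadjusted p under 0.05 there were 6, 4 and 2 of 26 in SSC against Thy, CSP against Thy and SSC against CSP. The shares of all genes were 17.7%, 12% and 6.51%. The methyltransferase gene Kmt2c was at 12.15 in SSC, 11.35 in CSP and 11.10 in Thy (SSC against Thy 1.06, adjusted p = 0.122). Rnf2, the catalytic subunit of the Polycomb complex that ubiquitinates histone H2A, was 0.96 higher in SSC than in Thy (adjusted p = 0.183). Men1, a partner of trithorax methyltransferases, was 0.87 higher with JUN over the 3 populations (SE 0.20, adjusted p = 0.396 in limma).

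Retinoic acid switches on Hox genes in the embryo. Of 16 measured genes that supply, clear or sense it, 15 were tested and 12 lay above the median on all arrays, as did 50.1% of all genes. At an unadjusted p under 0.05 there were 0, 5 and 2 of the 15 in SSC against CSP, SSC against Thy and CSP against Thy. The shares of all genes were 6.51%, 17.7% and 12%. Rxrg, a retinoid X receptor, was lower in CSP than in Thy, at 8.16 against 9.39, by -1.22 (SE 0.23, adjusted p = 0.0274 in limma), and was the only one to pass in any comparison. Cyp26b1, which degrades retinoic acid, read 9.73, 9.94 and 11.18 in SSC, CSP and Thy, and its difference between CSP and Thy was -1.24 (SE 0.58, adjusted p = 0.423).

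Other positional genes were read from 3 lists, for limb and girdle, vertebra and rib, and skull and neural crest. Above the median on all arrays were 11 of 19, 3 of 12 and 3 of 23 of them, against 50.1% of all genes, and below it on all were 4, 2 and 8, against 27.4%. The limb genes above it throughout included Tbx5, the forelimb factor, at 7.99 to 8.97, and Pitx1, the hindlimb factor, at 8.15 to 9.93. The 15 tested included 0 past the threshold in any comparison and 1, 2 and 1 at an unadjusted p under 0.05 in SSC against CSP, SSC against Thy and CSP against Thy, shares to be read for all 3 lists against 6.51%, 17.7% and 12% of all genes. Prrx2, a limb mesenchyme factor, was lowest in SSC, at 9.53 against 10.10 in CSP and 10.49 in Thy (SSC against Thy -0.96, adjusted p = 0.150 in limma). Shox2, which shapes the upper limb segment, differed by -1.01 with JUN over the 3 populations (SE 0.38, adjusted p = 0.396).

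Of 12 measured genes of the vertebra and rib field 10 were tested and 0 passed, with 3, 2 and 4 at an unadjusted p under 0.05 in the same order. Zic1, a factor of the dorsal somite, was at 10.14 in SSC and in CSP against 8.38 in Thy (1.76, SE 0.41, adjusted p = 0.0904 and 0.0815 in limma). Pax1, the sclerotome factor, was at 8.18, 8.82 and 7.81 in SSC, CSP and Thy. Tcf15, a factor of the somites, was lower in SSC than in Thy by -1.08 (adjusted p = 0.0884).

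Of 23 measured genes of the skull and neural crest field 12 were tested and none passed, with 1, 3 and 4 at an unadjusted p under 0.05 in the same order. Foxd3, a factor of the neural crest that is also among the glia markers, was at 7.87 in SSC, 7.02 in CSP and 8.14 in Thy (CSP against Thy -1.12, adjusted p = 0.101 in limma). Dlx3 was at 9.42 in SSC and 9.37 in CSP against 7.99 in Thy (adjusted p = 0.118 and 0.150). Barx1, a factor of jaw mesenchyme and joints, was 1.07 higher with JUN over the 3 populations (SE 0.29, adjusted p = 0.396).

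Listed embryonic inputs of Hox genes were largely dim. Of 9 measured genes such as Cdx1, Cdx2, Cdx4 and Gdf11, 6 were below the median on all arrays, as were 27.4% of all genes. The 2 tested were Egr2 and Nr6a1, and 0 passed the threshold. Only Nr6a1 had an unadjusted p under 0.05 between CSP and Thy, as did 12% of all genes. Nr6a1, a receptor that acts in trunk elongation, was at 6.80 in CSP against 8.08 in Thy (-1.28, SE 0.44, adjusted p = 0.260 in limma). Of 14 measured genes in or beside the clusters, 9 were tested and 0 passed, with 0 at an unadjusted p under 0.05 in any comparison by limma. Lnpk and Mtx2, which flank the d cluster, read 8.71 and 11.55 in SSC, 8.62 and 11.31 in CSP and 7.74 and 11.53 in Thy. The difference of Lnpk between SSC and Thy was 0.96 (SE 0.57, adjusted p = 0.380), and Evx2, next to Hoxd13, was below the median on 8 arrays. For the mean JUN difference none of these 8 lists of partners, regulators and positional genes had a gene past the threshold in limma. At an unadjusted p under 0.05, which 12.5% of all genes had, the counts were 0 of 8 TALE, 1 of 15 limb and 3 of 10 vertebra and rib genes. They were 1 of 12 skull, 2 of 15 retinoic acid, 5 of 26 Polycomb and trithorax, 1 of 2 embryonic input and 0 of 9 flanking genes.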

How the data were processed

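RNA from 12 mouse samples was hybridised to Affymetrix mouse arrays, 1 per sample. The deposited values are log2 expression per probe set, made with RMA per the submitters' processing notes; its version is unstated there. RMA normalises arrays to a common distribution and compresses differences of dim probe sets. Their range was 3.20 to 15.99, and the number of arrays limits the precision. Of 45101 probe sets 64 controls were left out; 34945 have 1 gene symbol in the platform annotation, 932 several and 9160 none. Entrez identifiers of 34741 were found in RefSeq's table (GRCm38.p6), which changed 0 symbols. Probe sets above their array's median on at least 2 arrays were kept (26560), and the brightest probe set per gene left 12516 of 18193 genes for testing.

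Tests used limma 3.58.1 in R 4.3.3 (two-sided, Benjamini-Hochberg over all genes tested, threshold 0.05). JUN effects came from a model of 6 group means, populations from a model of population and arm, both over all 12 arrays, without a block. Errors of differences are standard errors of the fit. The script was tested on simulated data.

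Replicate numbers pair arrays of different populations by the animal in the titles. The residual correlation of arrays from the same mouse ran from -0.33 to 0.41 (10 pairs, median -0.06). The 2 JUN arms hold different mice, so that their shared numbers pair nothing. P-values measure the spread between these arrays.

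Hox genes were all members of the 4 clusters. Values in every array are given for genes that passed, for up to 3 of lowest p in each direction of a comparison and for bright genes of each cluster. Lists of partners, regulators, positional genes and markers of other cells came from textbook knowledge. Members and lists were chosen with earlier results of these data known. Alternatives were a filter, the probe set choice, centring, poly-A covariate, blocks, fits of populations alone, and leaving out each array or mouse.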

Additional observations from a re-analysis of the deposited data

Results flagged for a closer look

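Each Hox gene's 4 values within a population were examined for a value far from the others (gap over range above Dixon's 95% critical value). Of 99 such sets 6 were marked, and chance marks about 1 in 20. Hoxd8 in Thy was 6.98 in the JUN array of mouse 4 against 8.92 to 9.32 in the others. Hoxc6 was 8.84 in that same array against 8.32 to 8.37. Hoxd1 in CSP was 7.21 in mouse 3b against 4.76 to 5.04. Hoxb13 in SSC was 6.94 in mouse 10 against 7.41 to 7.48, and Hoxc8 in SSC was 8.73 in mouse 4 against 9.06 to 9.12. Hoxc9 in Thy was 8.31 in mouse 3 against 8.61 to 8.65.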

How the results depend on the processing

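Of values for single Hox genes, 522 kept their direction and side of the threshold, 14 lost the call, 1 gained it and 7 reversed with a setting or mouse changed; with 1 array left out these were 305, 13, 1 and 5. Calls were gained by Hoxd8 with JUN in Thy without mouse 7 (-2.14, limma adjusted p = 0.0414) and by Hoxa2 in SSC against Thy without the SSC array of mouse 4 (-0.97, adjusted p = 0.0455). All lost calls were those of Hoxd9, which passed in 7 of 21 alternatives for SSC against Thy and 8 of 21 for CSP against Thy.

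With the mouse as a fixed replicate block, 8 genes passed for SSC against CSP, 4 with 0 Hox genes for SSC against Thy, and 125 for CSP against Thy. As a random block the counts were 54, 49 and 127. Blocking JUN on its replicate number gave 0 genes in each population and turned Hoxa5 in SSC to -0.0754.

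SSC against Thy gave 24 genes with no filter, 75 with the mean of probe sets, 74 with arrays centred on their medians, 0 with 0 Hox genes under the poly-A covariate and 16 with 0 Hox genes when both populations were fitted alone. CSP against Thy gave 46 with 0 Hox genes under the poly-A covariate and 0 Hox genes fitted alone. Poly-A turned Hoxd10 with JUN in SSC to 0.0899.

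Without mice 10, 3, 3b and 7, SSC against CSP gave 17, 34, 17 and 7 genes. Without mice 10, 3, 3b, 4 and 7, SSC against Thy gave 4, 3, 5, 85 and 10, with 0 Hox genes each. CSP against Thy gave 17 without mouse 3 and 30 without 3b, with 0 Hox genes without mouse 3, 3b, 4 or 7. Without mouse 7, JUN gave 282 genes in SSC, 175 in Thy with 1 Hox gene (Hoxd8) and 495 over populations; without mouse 4 it gave 2 in CSP. Arms then hold 1 array, assumed to vary like the others. The cause was not tested.

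With single arrays left out in turn, SSC against CSP gave 17 to 50 genes, SSC against Thy 4 to 304 with 0 to 2 Hox genes (the highest without the SSC array of mouse 4), CSP against Thy 52 to 128 with 0 to 1 Hox genes, and JUN in SSC 0 to 1. JUN differences in SSC then ran from -0.108 to 1.565 for Hoxa5 (lowest without mouse 10), -1.454 to 0.437 for Hoxd10 (highest without mouse 7) and -0.788 to 0.255 for Hoxb3 (highest without mouse 7; 0.0663 without mouse 3). In CSP Hoxb9 ran from -0.114 (without mouse 3b) to 1.251.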
